A study of Mus musculus with 7 samples.

Results

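Mitochondrial ribosomal protein genes were examined in sorted bone marrow LSK cells (lineage-negative, Sca1+, Kit+), a mouse population enriched for blood stem cells and their earliest progeny. The members were every gene whose symbol was Mrpl or Mrps followed by a number and at most 1 letter from a to c, a rule that uses names and no measured value. This rule took 77 of the 24421 gene symbols in the deposited counts. The RNA-seq libraries numbered 7, of which 4 were Ddx41+/+ (replicates 1 to 4) and 3 were Ddx41+/- (replicates 6 to 8). Both genotypes came from irradiated BoyJ recipients of bone marrow that carried Rosa-CreERT2, a Cre recombinase that tamoxifen activates in any cell type, with either 1 floxed Ddx41 allele or none. All recipients, controls included, were given tamoxifen, 1 mg a day over 2 rounds of 5 days. The sort took place at 8 weeks from the transplant. Sex and age of the mice, the share of recipient cells left in the sort, and whether each sample was 1 mouse are not given in the sources used here, so p-values measure the spread between these samples. The question was whether loss of 1 copy of Ddx41, a DEAD-box RNA helicase, was accompanied by a different level of these transcripts.

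Mitochondria hold their own ribosomes, which translate the few proteins that mitochondrial DNA encodes, all of them parts of the respiratory chain and ATP synthase. The ribosomal RNAs come from mitochondrial DNA, whereas every protein of the particle is encoded in the nucleus, made in the cytosol and imported. Some of these proteins descend from bacterial ribosomal proteins and others exist only in mitochondria, and blood stem cells are known for a low reliance on respiration that rises as they differentiate.

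None of the 77 members passed the adjusted threshold between genotypes. The 77 genes were all abundant enough to be tested, with 271 to 6452 counts per gene and library, and their log2 fold changes (Ddx41+/- against Ddx41+/+) ran from -0.43 for Mrps6 to 0.15 for Mrpl1. The smallest Benjamini-Hochberg adjusted p of edgeR's quasi-likelihood test among them was 0.314. Of all 13340 genes tested, 29 (0.217%) passed the same threshold of 0.05, 16 of them higher in Ddx41+/- (0.12%) and 13 lower (0.0975%). At an unadjusted p under 0.05, 4 members were lower and 0 were higher, which is 5.19% of the members for the lower direction. The same count over all tested genes was 4.93% lower and 5.7% higher. With no expression filter, DESeq2 or limma-voom, the number of members past the adjusted threshold was also 0.

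Confidence intervals bounded the differences of most members. Standard errors of the members' log2 fold changes lay between 0.0628 and 0.174 (median 0.0842), and the 95% confidence interval stayed within ±0.3 on the log2 scale for 57 members and within ±0.5 for 76, the exception being Mrps6. Of the members, 59 (76.6%) had a log2 fold change within ±0.1, against 59.6% of the 7006 other genes in the same range of mean CPM (counts relative to the TMM-scaled library total), whose median standard error was 0.0883.

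**Figure D1:**
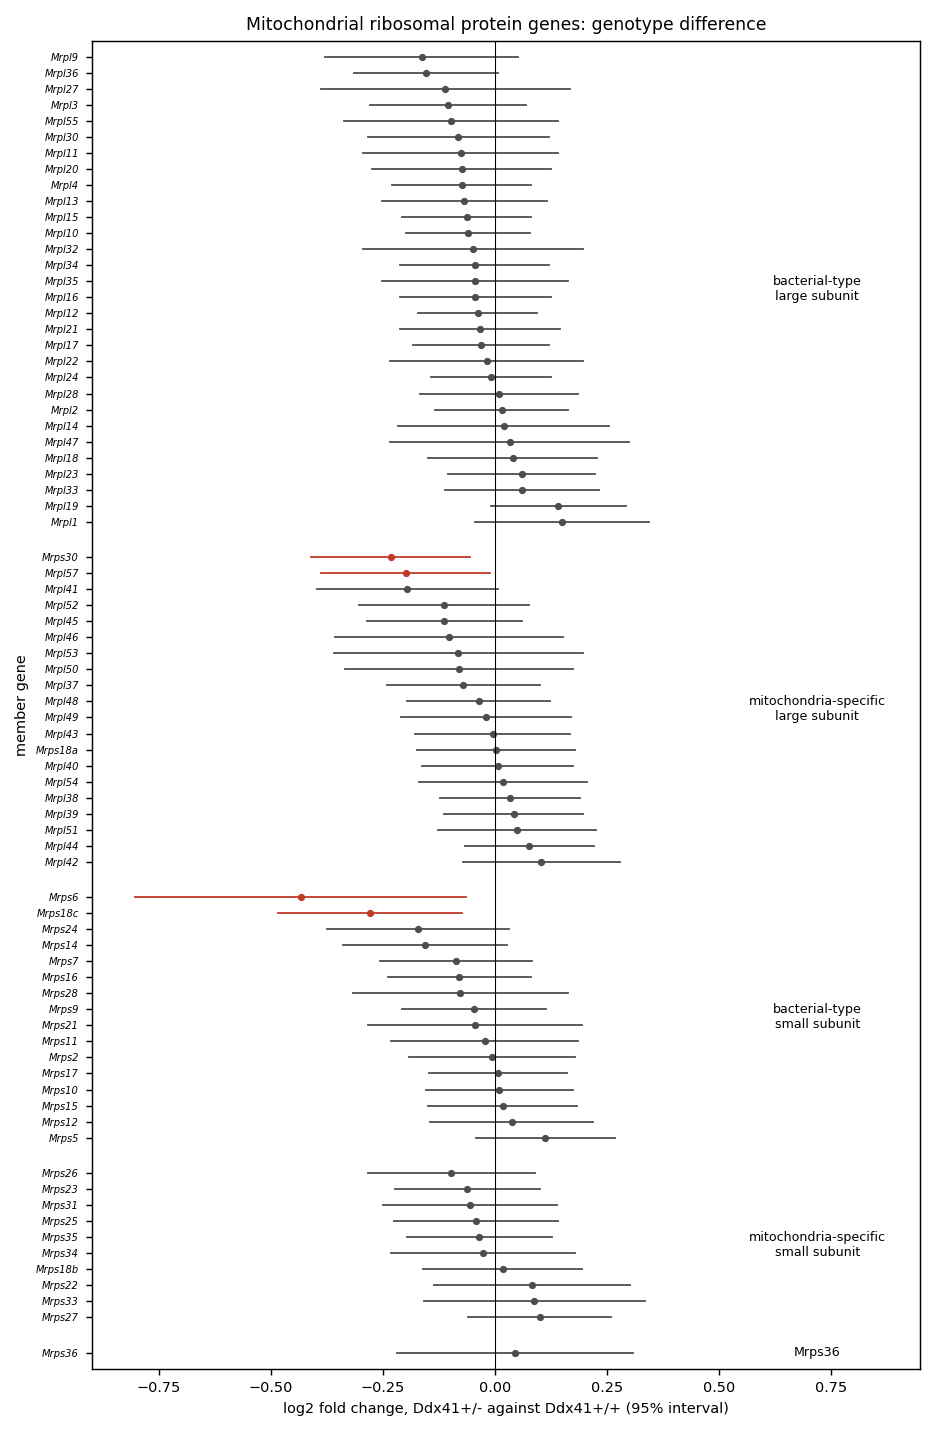
Log2 fold change of each of the 77 members, Ddx41+/- against Ddx41+/+, with its 95% confidence interval, grouped by the origin of the protein and its subunit. Red marks the 4 members whose interval leaves out 0 before adjustment (Mrps30, Mrpl57, Mrps6 and Mrps18c), and the other 73 intervals cross 0.

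As a whole the members' transcripts took about the same share of the libraries in both genotypes. In the order of the replicate numbers, their summed CPM was 3850, 4095, 4239 and 4096 for Ddx41+/+ and 4164, 3885 and 3896 for Ddx41+/-. The genotypes overlapped, with means of 4070 ± 162 (SD, n = 4) and 3982 ± 158 (SD, n = 3), so that the Ddx41+/- mean was 97.8% of the Ddx41+/+ mean and the difference was smaller than the SD of either genotype. The median log2 fold change of the members was -0.04, beside -0.0048 over all tested genes. Of the members, 50 lay below 0 and 27 above, 64.9% below against 51.2% of all tested genes. That share depended on the samples and the scaling. It was 79.2% without Ddx41+/+ replicate 1, 55.8% at its lowest when another sample was left out, and 51.9% when each library was corrected for the GC content and length of genes, a correction chosen after seeing the data.

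The summed transcripts of the 50 large-subunit and the 26 small-subunit members had a similar ratio in all 7 samples. The large-subunit members summed to a mean of 2849 CPM (SD 114, n = 4) in Ddx41+/+, beside 2791 CPM (SD 125, n = 3) for Ddx41+/-. The small-subunit members summed to 1198 ± 48.6 and 1168 ± 36.9 CPM. The ratio of the 2 sums was 2.36, 2.4, 2.35 and 2.41 in the Ddx41+/+ samples and 2.42, 2.35 and 2.39 in the Ddx41+/- samples, with means of 2.38 ± 0.0326 and 2.39 ± 0.0363. Subunits were assigned by the protein's place in the particle and not by symbol, since Mrps30 and Mrps18a, named for the small subunit, belong to the large one. Mrps36, now known as a part of the 2-oxoglutarate dehydrogenase complex, was kept as a member by name but placed in neither subunit.

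**Figure D2:**
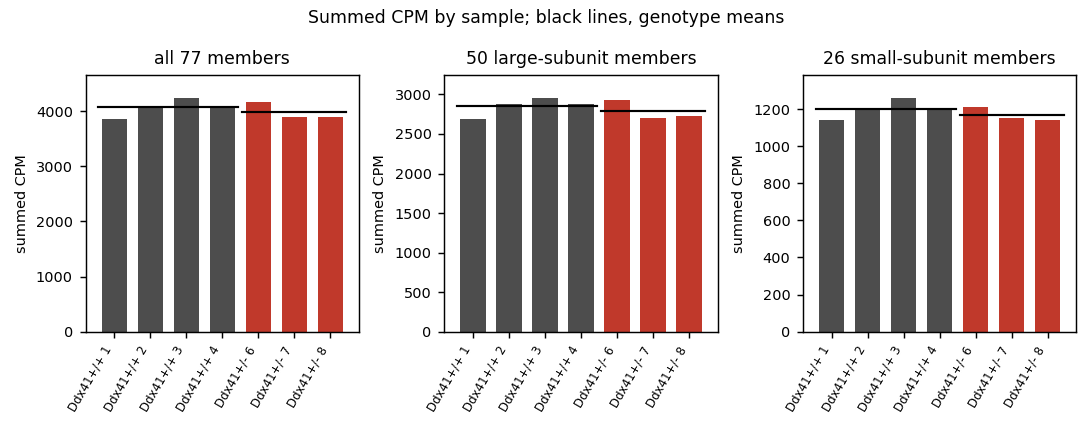
Summed CPM per sample for all 77 members, the 50 large-subunit members and the 26 small-subunit members, with grey bars for Ddx41+/+, red bars for Ddx41+/- and a black line at each genotype's mean. Ddx41+/- replicate 6, at 4164 CPM over all members, lies above 3 of the 4 Ddx41+/+ samples.

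The sorted cells themselves differed between genotypes in their marker genes. In bulk samples, fewer cells of a type and less RNA per cell cannot be told apart. Markers of LSK cells, all 10 of them detected, summed to 1729 to 1917 CPM in Ddx41+/+ and 1567 to 1714 in Ddx41+/-, without overlap. Of the 10, 1 passed the test and was lower in Ddx41+/-. At an unadjusted edgeR p under 0.05, 7 were lower, against 4.93% of all tested genes. Kit and Ly6a (Sca1), the genes of the sorted antigens, were at log2 fold changes of 0.0041 (SE 0.0641) and -0.0112 (SE 0.249). Mature neutrophil markers, 10 of 11 listed genes in the counts, summed to 741 to 1255 CPM in Ddx41+/+ and 1335 to 2283 in Ddx41+/-, again without overlap, with 1 of 10 passing the test and higher. The count higher at an unadjusted edgeR p under 0.05 was 9 of 10, against 5.7% of all tested genes. Only Cxcr2 lay below 0 (log2 fold change -0.24). The sums of B-lineage markers (47.6 to 68.4 and 65.4 to 89 CPM, with 1 of 9 genes passing the test and higher), late erythroid markers (59 to 112 and 99.9 to 112 CPM, with 4 of 8, the adult globins, at 0 in all samples), T and NK cell markers (224 to 280 and 257 to 284 CPM) and macrophage markers (166 to 185 and 161 to 222 CPM) overlapped between genotypes. All 9 B-lineage markers lay above 0, and 4 of them were higher at an unadjusted edgeR p under 0.05. The late erythroid, T and NK cell and macrophage lists had 0 genes at that p in either direction. The T and NK cell sum was almost all Nkg7 (mean 258 CPM), while Cd3d, Cd3e, Cd3g and Cd8a had means of 0.376 CPM or less. Whether the globin values of 0 meant absent RNA or reads left unassigned was not tested. The late erythroid sum rests on the other 4 genes. The part of these marker genes' cells in the members' levels was not tested. Library totals ran from 32234499 to 43751290 counts, and Ddx41 itself was lower in every Ddx41+/- sample, at 68.1, 64.4 and 69.5 CPM against 92.8, 98.8, 93.3 and 107 CPM (log2 fold change -0.54, SE 0.0714, edgeR adjusted p = 0.0052).

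The 4 members with the smallest p were all lower in Ddx41+/- by their fitted values, and they belong to both subunits. Mrps18c, the small-subunit protein that descends from bacterial S18, had 35.8, 36.4, 42.8 and 32.8 CPM in Ddx41+/+ and 31.1, 29.5 and 30.8 CPM in Ddx41+/-. All Ddx41+/- samples lay below all Ddx41+/+ samples. The mean was 82.4% of Ddx41+/+, with a log2 fold change of -0.28 (SE 0.097, edgeR adjusted p = 0.314). The gene lies at chr5:100798627-100804471 on the plus strand of GRCm38. The annotated gene Gm43511 overlaps it on the same strand, and how reads of the overlap were counted is not known here.

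Mrps6, the counterpart of bacterial S6, sits beside the S18 protein in the small subunit and had the lowest CPM of any member. It had 15.9, 14.9, 18.7 and 13.9 CPM in Ddx41+/+ and 13.7, 8.04 and 13.4 CPM in Ddx41+/-. Ddx41+/- replicate 7 was far below the other samples, and Ddx41+/- replicate 6 lay just under the lowest Ddx41+/+ sample. The log2 fold change of -0.43 (SE 0.174, edgeR adjusted p = 0.385) became -0.23 without replicate 7. The gene, at chr16:92058270-92112227, shares its strand and some of its span with Slc5a3, and how reads of the overlap were counted is not known here.

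Mrps30, a mitochondria-specific protein of the large subunit in spite of its symbol, had 49.3, 53.7, 58.5 and 58.7 CPM in Ddx41+/+ and 49.6, 43.7 and 47.2 CPM in Ddx41+/-. Ddx41+/- replicate 6 overlapped Ddx41+/+ replicate 1, and the others were lower. The log2 fold change was -0.23 (SE 0.0836, edgeR adjusted p = 0.326). Mrps30 lies at chr13:118378381-118387252, the chromosome of Ddx41, and 948196 bases from Nnt, the mitochondrial transhydrogenase, which was itself lower in Ddx41+/- (log2 fold change -0.92, edgeR adjusted p = 6.65e-06). It is overlapped on the other strand by B430218F22Rik. Mrpl57, a small mitochondria-specific protein of the large subunit, had 36.8, 40.4, 40.8 and 44.6 CPM in Ddx41+/+ and 35, 33.5 and 37.7 CPM in Ddx41+/-, with 1 overlapping sample and a log2 fold change of -0.20 (SE 0.0891, edgeR adjusted p = 0.437).

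The count of 4 rested on single samples. Without Ddx41+/- replicate 7 it was 1, without Ddx41+/+ replicate 3 it was 2, and without Ddx41+/- replicate 6 it was 10, while the count in the higher direction stayed at 0 or 1 in each of the 7 fits that left out a sample. No member passed the adjusted threshold in any of these fits. The counts at an unadjusted p were not made over all tested genes in these fits, so they have no background share beside them.

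Members whose genotypes did not overlap in CPM were 3 lower (Mrps18c, Mrps6 and Mrpl10) and 0 higher, or 3.9% lower against 5.21% of all tested genes, and 4.85% of all tested genes in the higher direction. Mrpl10, which forms the base of the stalk that binds translation factors, had 69.8, 68.7, 71.1 and 71.8 CPM in Ddx41+/+ and 68.4, 66.7 and 67.3 CPM in Ddx41+/-. The gap was narrow, and the log2 fold change was only -0.06 (SE 0.065, edgeR adjusted p = 0.797).

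**Figure D3:**
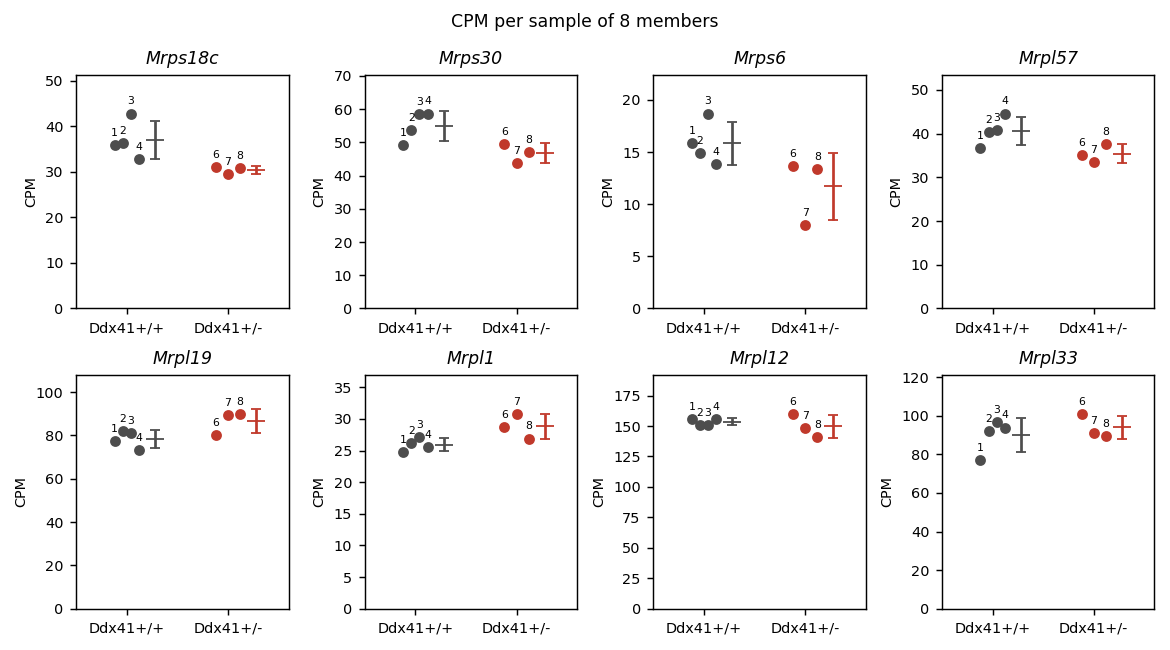
CPM of 8 members in each sample, with grey points for Ddx41+/+ and red points for Ddx41+/-, the replicate number above each point, and the mean ± SD beside them. Of the 8, Mrps18c and Mrps6 have all Ddx41+/- samples below all Ddx41+/+ samples, and Ddx41+/- replicate 7 is the lowest sample of Mrps18c, Mrps30, Mrps6 and Mrpl57.

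At the higher end the differences were smaller still. Mrpl19, the counterpart of bacterial L19 at the face between the subunits, had 77.5, 82.2, 81.1 and 73.2 CPM in Ddx41+/+ and 80.4, 89.5 and 90 CPM in Ddx41+/-. Replicate 6 lay among the Ddx41+/+ samples and the other Ddx41+/- samples lay above them (log2 fold change 0.14, SE 0.0709, edgeR adjusted p = 0.501). Mrpl1, of the mobile stalk by which spent tRNA leaves, had 24.8, 26.2, 27.2 and 25.5 CPM in Ddx41+/+ and 28.7, 30.8 and 26.9 CPM in Ddx41+/- (log2 fold change 0.15, SE 0.0915, edgeR adjusted p = 0.59). The next 4 were Mrps5, a protein of the mRNA entry (0.11), Mrps27, a pentatricopeptide-repeat protein (0.10), Mrpl42 (0.10) and Mrpl44, which has a ribonuclease III-like fold (0.08), all values being log2 fold changes with an adjusted p of 0.625 or more. Of these, Mrpl42 rested on Ddx41+/- replicate 7, at 91.5 CPM against 75.4 and 73 CPM in the other Ddx41+/- samples, and its log2 fold change was -0.0042 without it. At the lower end, Mrpl41 (-0.20, adjusted p = 0.489) and Mrpl36 (-0.15, adjusted p = 0.499), the counterpart of bacterial L36, followed the 4 genes described above.

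By origin of the protein, each class had a similar distribution. The 30 bacterial-type large-subunit members had a median log2 fold change of -0.04, with 21 below 0 and 0 at an unadjusted p under 0.05. The 20 mitochondria-specific large-subunit members had a median of -0.03, with 12 below 0 and 2 lower at that p (Mrps30 and Mrpl57). The 16 bacterial-type small-subunit members had a median of -0.05, with 11 below 0 and 2 lower (Mrps18c and Mrps6). The 10 mitochondria-specific small-subunit members had a median of -0.03, with 6 below 0 and 0 at that p. Over all tested genes, 4.93% were lower and 5.7% higher at that p, and whether any class departs from these shares was not tested. Mrps18a and Mrps18b were listed as mitochondria-specific, although both are homologs of bacterial S18.

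Functional sites of the particle showed the same small range. The stalk that recruits translation factors (Mrpl10, Mrpl11 and Mrpl12) summed to 271, 274, 273 and 275 CPM in Ddx41+/+ and 282, 254 and 256 CPM in Ddx41+/-. Its log2 fold changes were -0.06 for Mrpl10, -0.08 for Mrpl11 and -0.04 for Mrpl12, the stalk protein with the highest CPM of any member. Mrpl45, which anchors the particle to the inner membrane at the polypeptide exit, was at -0.11 (SE 0.0817, edgeR adjusted p = 0.666), and the 6 exit-site members had a median of -0.01. The 5 members of the central protuberance had a median of 0.0065 and the 6 of the decoding and mRNA path one of -0.02, among them Mrps12 of the decoding centre at 0.04 and Mrps7 of the small-subunit head at -0.09. The homologs of S18 can be compared within these samples. Mrps18c was at -0.28, while Mrps18a of the large subunit was at 0.0027 (SE 0.0834) and Mrps18b of the small subunit at 0.02 (SE 0.0837), both with adjusted p of 0.963 or more. The difference between the homologs was not tested. Mrps22, a mitochondria-specific small-subunit protein, was at 0.08 (SE 0.103).

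Members on chromosome 13, which holds Ddx41, had log2 fold changes of both signs. Mrps30 was at -0.23, Mrpl36 at -0.15 and Mrpl32 at -0.05, whereas Mrps27 was at 0.10 and Mrps36 at 0.05 (log2 fold changes). The 77 genes lay on 17 chromosomes, and 7 of them (9.09%) were within 1 Mb of a gene that passed the test, against 4.94% of all located genes. The other 6 of these, Mrpl14, Mrps18a, Mrpl2, Mrps21, Mrpl20 and Mrpl48, had log2 fold changes between -0.0744 and 0.0197. Mrpl14 lies 26997 bases from Capn11, a calpain protease gene with a log2 fold change of 5.74, and was itself at 0.02.

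Levels of the members differed far more between genes than between genotypes. Mean CPM ran from 14.1 for Mrps6 to 152 for Mrpl12, a 10.8-fold range. Scaled by exon length, Mrpl33, a counterpart of bacterial L33, was highest with 192 CPM per kb. Mrpl12 followed with 115, Mrpl42 with 113, Mrpl52 with 90.2 and Mrpl18, of the central protuberance, with 87.1. Lowest were Mrps25 with 5.81 CPM per kb, Mrpl1 with 6.52, Mrpl47 with 6.96, Mrpl17 with 7.49 and Mrpl32, which is matured by a protease in the matrix, with 9.17. The length is the union of all exons of RefSeq-linked transcripts, so a gene with a long rarely used exon is placed too low. In CPM, before the length was considered, Mrpl33 had 77, 92.2, 96.8 and 93.9 in Ddx41+/+ and 101, 91.2 and 89.6 in Ddx41+/-, and Mrpl12 had 156, 151, 151 and 156 in Ddx41+/+ and 160, 148 and 141 in Ddx41+/-. Both genotypes overlapped for each. Mrpl33 was lowest in Ddx41+/+ replicate 1, and its log2 fold change of 0.06 became -0.0077 without that sample.

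**Figure D4:**
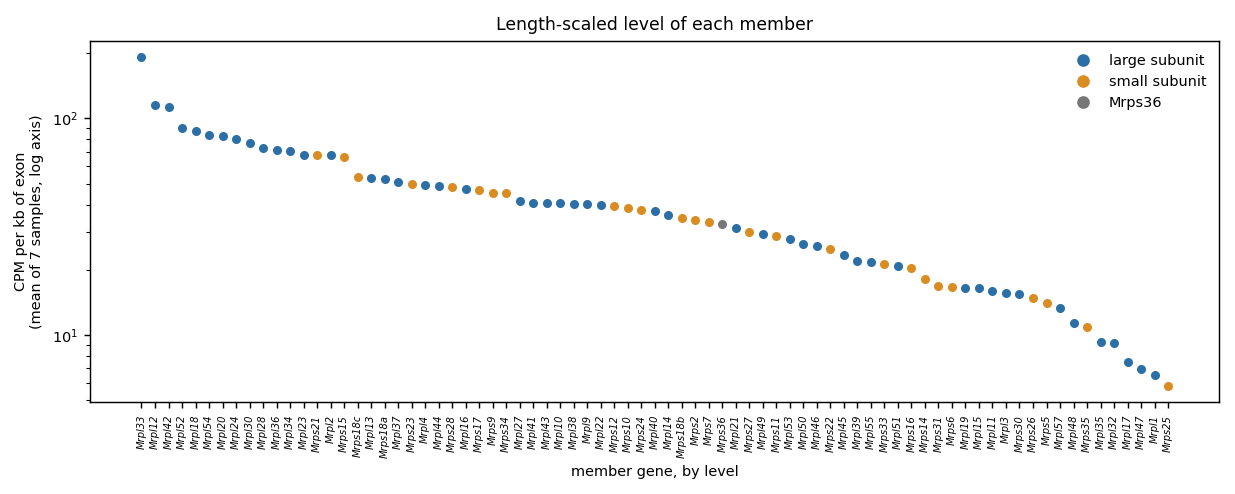
Level of each of the 77 members in CPM per kb of exon, as the mean of 7 samples on a log axis, ordered from the highest (Mrpl33, 192) to the lowest (Mrps25, 5.81). Blue marks the large subunit, orange the small subunit and grey Mrps36; the 13 highest genes are all of the large subunit.

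Members varied little within a genotype, apart from 1 sample. The median SD of log2 CPM was 0.0918 over the members in Ddx41+/+ and 0.0993 in Ddx41+/-, beside 0.103 in both genotypes for other genes of the same CPM range. Ddx41+/- replicate 7 had the widest spread across members, mostly towards low values. It was the lowest of the 7 samples for 31 members, 40.3% against 24.3% of other genes of that range. It was the highest for 13, or 16.9% against 16.8%. Together these were 57.1% of the members against 41.1% of the other genes. The SD across members of the log2 deviation from each gene's mean was 0.174 in that sample and between 0.0641 and 0.121 in the other 6. It was not computed for other genes. The members lowest there included Mrpl9 (48.4 CPM, against 63.1 to 71 CPM elsewhere), Mrpl46 (21.5 against 29.1 to 32.6 CPM) and Mrpl27 (23.6 against 28.8 to 36.9 CPM), and those highest there included Mrpl42 and Mrps36 (28.1 against 19.6 to 24 CPM). These 5 genes were chosen after their values were seen. Ddx41+/+ replicate 3 was the highest sample for 27 members and Ddx41+/+ replicate 1 the lowest for 21. Across the 77 members, the log2 fold change had a correlation of 0.079 with GC content, 0.072 with log2 exon length and 0.221 with log2 mean level, as a description over genes that share the same 7 libraries.

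**Figure D5:**
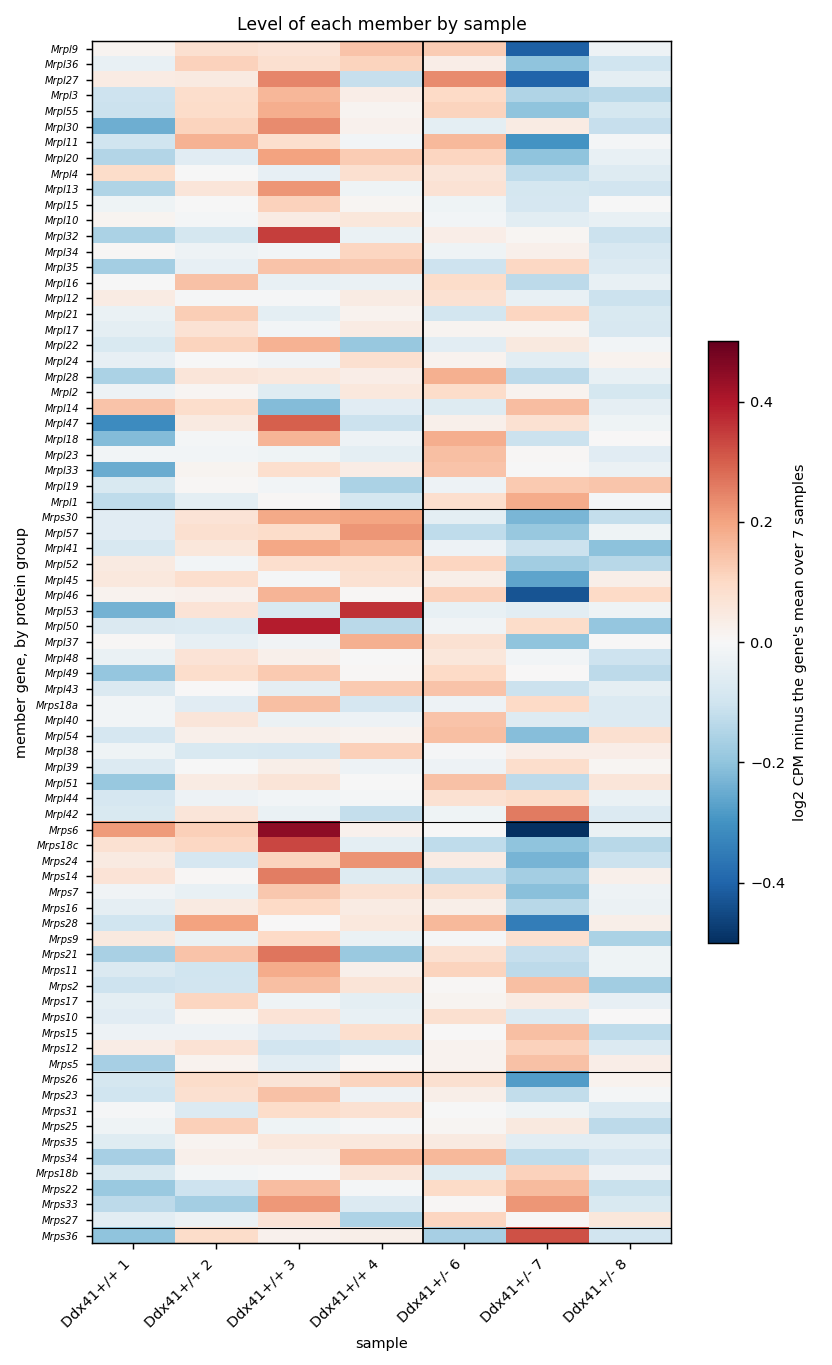
Log2 CPM of each member in each sample minus the gene's mean over the 7 samples, with colours saturating at ±0.5, members grouped by protein origin and subunit, and a vertical line between the genotypes. The column of Ddx41+/- replicate 7 holds the deepest blues, among them Mrps6, Mrpl9, Mrpl27 and Mrpl46, and has an SD of 0.174.

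Some members had a neighbouring gene close to their start or a motif in their promoter, features that the naming rule did not use. Of the 77, 26 (33.8%) had a protein-coding neighbour that starts within 1000 bases and runs the other way, against 14.5% of the 12228 protein-coding genes tested. Mrps11 and Mrpl46 are each other's neighbour, with starts that overlap by 412 bases. All 26 neighbours were tested and 0 passed the adjusted threshold. Mrps18c shares its start region with the DNA helicase gene Helq, 29 bases away and at a log2 fold change of 0.09 (SE 0.134), and Mrpl57 shares its own with Ska3, a gene of the kinetochore, 49 bases away and at -0.16 (SE 0.101).

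Promoter windows from RefSeq (GRCm38.p6), 250 bases before to 50 after the start, were matched by symbol for 68 members and searched on both strands. The NRF1 motif GCGCANGCG occurred in 16 members (23.5%) and in 7.03% of all 27025 genes with a window, the ETS motif CCGGAAGT in 12 (17.6%, against 4.31%), and the YY1 motif AAGATGGCG in 8 (11.8%, against 1.64%). With 1 more letter (a final C or G), these became 13 members for NRF1 (5.19% of all genes) and 5 for YY1 (0.995%). The CCAAT box occurred in 27 (39.7%, against 41.1%) and the TATA box TATAAA in 5 (7.35%, against 15.7%). These factors are known to act at nuclear genes for mitochondrial proteins, but a match is only a run of letters and not a bound site. A gene was counted once whatever its number of windows. The share over all genes was not limited to genes tested here or to protein-coding genes, unlike that of the neighbours above. The members were all tested, so the 2 sets are not alike. The windows of 3 of the 4 members with the smallest p are shown because each holds a different one of these motifs, in capitals and in the gene's own direction. That of Mrps18c (chr5:100798509-100798808, plus strand) holds the ETS motif in reverse, that of Mrps30 (chr13:118387203-118387502, minus strand) holds the CCAAT box 3 times in reverse, and that of Mrpl57 (chr14:57825989-57826288, plus strand) holds the NRF1 motif.
Mrps18c: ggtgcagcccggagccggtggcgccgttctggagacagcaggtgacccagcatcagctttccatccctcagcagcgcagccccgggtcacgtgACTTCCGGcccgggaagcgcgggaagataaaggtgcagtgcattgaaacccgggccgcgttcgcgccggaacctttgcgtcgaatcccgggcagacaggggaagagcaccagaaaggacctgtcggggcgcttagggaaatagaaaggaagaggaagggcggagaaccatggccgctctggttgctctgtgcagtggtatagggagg
Mrps30: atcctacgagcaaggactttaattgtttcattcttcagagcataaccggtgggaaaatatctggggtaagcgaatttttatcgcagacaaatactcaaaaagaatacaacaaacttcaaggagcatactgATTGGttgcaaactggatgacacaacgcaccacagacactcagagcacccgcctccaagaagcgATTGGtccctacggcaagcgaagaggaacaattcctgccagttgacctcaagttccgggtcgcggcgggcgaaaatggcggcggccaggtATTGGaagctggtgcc
Mrpl57: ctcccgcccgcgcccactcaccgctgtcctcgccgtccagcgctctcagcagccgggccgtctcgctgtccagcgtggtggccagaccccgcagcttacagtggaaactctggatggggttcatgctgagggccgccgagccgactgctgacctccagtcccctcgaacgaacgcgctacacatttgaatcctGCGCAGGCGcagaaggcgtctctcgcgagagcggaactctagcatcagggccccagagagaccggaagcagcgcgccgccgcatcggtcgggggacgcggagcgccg
The window of Mrps6 held none of the 5 motifs.

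Other genes of the mitochondrial translation system were given by lists written from general knowledge. Their counts at an unadjusted p under 0.05 stand beside 4.93% lower and 5.7% higher over all tested genes. Among 6 mitoribosomal proteins with other symbols, 0 passed the edgeR test, 1 was lower at an unadjusted p under 0.05 and the median log2 fold change was -0.01. Aurkaip1, a mitochondria-specific protein of the small subunit, was the lowest of these, with 77.4, 78.3, 81.9 and 79.2 CPM in Ddx41+/+ and 73.5, 64.2 and 69.5 CPM in Ddx41+/-. Its genotypes did not overlap (log2 fold change -0.20, SE 0.0695, edgeR adjusted p = 0.318). Of 26 assembly factors listed, 23 were in the counts, 0 passed, 1 was higher at an unadjusted p under 0.05 and the median was -0.06, with the smallest p at Fastkd2, an RNA-binding factor of the large subunit's ribosomal RNA (0.20, SE 0.0902, edgeR adjusted p = 0.443).

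Of the 15 translation factors 0 passed and 0 had an unadjusted p under 0.05, with a median of 0.03 and the smallest p at Gfm2, which recycles ribosomes after termination (0.17, SE 0.0905, edgeR adjusted p = 0.525). Of the 20 mitochondrial aminoacyl-tRNA synthetases 0 passed and 0 had an unadjusted p under 0.05, with a median of 0.0012. Lars2, which charges leucine, ranged from 435 to 5297 CPM across samples. Its mean of 2841 CPM was far above the next synthetase, Iars2 at 156. Rn45s, a ribosomal RNA, took 0.623% to 2.92% of the counts. Both were lowest in Ddx41+/- replicate 8 and highest in Ddx41+/+ replicate 3. Ddx41+/- replicate 7 departed from this, with 2314 CPM of Lars2 at 2.58% Rn45s. Whether the Lars2 counts reflect its mRNA was not tested. Of 9 tested genes of mitochondrial DNA transcription and maintenance 0 passed and 1 was lower at an unadjusted p under 0.05, with the smallest p at Polg2, the accessory subunit of the mitochondrial DNA polymerase (-0.43, SE 0.175, edgeR adjusted p = 0.389). The transcripts of mitochondrial DNA itself were not analysed here.

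Among 12 nuclear regulators of mitochondrial genes, 1 passed the test. Mycn, a MYC-family transcription factor, had 31.6, 21.7, 23.5 and 22.1 CPM in Ddx41+/+ and 13.3, 14.6 and 11 CPM in Ddx41+/-. The genotypes did not overlap and the level fell by 0.93 on the log2 scale (SE 0.146, edgeR adjusted p = 0.0157). Without Ddx41+/- replicate 8 the adjusted p was 0.0924 (log2 fold change -0.83), and it was below the threshold under the other 14 alternatives. Its relative Myc, at 424 to 528 CPM in Ddx41+/+ and 323 to 524 CPM in Ddx41+/-, overlapped between genotypes (-0.24, SE 0.164, edgeR adjusted p = 0.675). Gabpa, a subunit of the ETS-family factor that binds the CCGGAAGT motif, had 92.8, 94.1, 92 and 96.3 CPM in Ddx41+/+ and 106, 113 and 100 CPM in Ddx41+/-, without overlap but short of the adjusted threshold (0.18, SE 0.0649, edgeR adjusted p = 0.329). Nrf1 was at -0.06 (SE 0.0732) and Yy1 at 0.04 (SE 0.0643).

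Of the 82 tested genes for proteins of the cytosolic ribosome 0 passed the adjusted threshold, 1 was higher and 6 were lower at an unadjusted p under 0.05, and 72 lay below 0, beside 50 of the 77 mitochondrial members and 51.2% of all tested genes. Their log2 fold changes ran from -1.57 to 0.46 with a median of -0.07, beside -0.43 to 0.15 and a median of -0.04 for the mitochondrial members. Their summed CPM overlapped between genotypes, from 69789 to 79614 in Ddx41+/+ and from 66807 to 75484 in Ddx41+/-. Over all tested genes, 5.7% were higher and 4.93% lower at an unadjusted p under 0.05. Whether the lists differ was not tested.

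Overlapping genes are a limit on these values. Another annotated gene overlapped 41 of the members, and the sources name a stranded and an unstranded library kit without the strand setting of the counting. The 36 members without an overlapping gene had a median log2 fold change of -0.04, 22 of them below 0 and 1 at an unadjusted p under 0.05, Mrpl57. Of these 36, 0 had genotypes that did not overlap in CPM, against 5.21% lower and 4.85% higher over all tested genes. Mrps18c, Mrps6 and Mrpl10 thus all have an overlapping gene, as has Mrps30. The part of overlapping genes in the members' values was not tested.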

How the data were processed

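Poly(A) RNA of sorted LSK cells was sequenced by the authors, mapped to mm10 and deposited as counts, 1 whole number per gene and sample with no scaling. The submitters' processing notes name FastQC 0.11.7, HISAT2 2.0.5 and featureCounts 1.5.2 without their roles. A Ddx41+/- library numbered 5 was left out of the deposited counts and was not analysed here. No sample column was left unused, and no pair of the 21 sample pairs agreed within sampling noise.

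From the counts, 13340 genes kept by edgeR 4.0.16's filter were fitted with TMM scaling and the robust quasi-likelihood test, on all 7 samples with genotype as the only term, and p-values were adjusted over all of them (Benjamini-Hochberg, threshold 0.05). CPM used the TMM-scaled totals. Standard errors were derived from the fold change and the test statistic. The script was tested on simulated data. Positions came from GENCODE M21, in which all 77 members were found. Alternatives were other scalings, no filter, a non-robust fit, limma-voom (limma 3.58.1), DESeq2 1.42.0 and leaving out each sample.

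The members and lists were chosen with earlier results of these data known. Named were Ddx41, every member past the threshold, the 6 members with the smallest p in each direction, the 5 highest and 5 lowest per kb, those on chromosome 13, 13 members of known sites, and in each companion list the genes past the threshold or else the one with the smallest p. For 1 companion list that gene is not reported here. Gabpa, Myc, Nrf1, Yy1, Lars2, Nnt, Capn11 and neighbouring genes were added after their values were seen, as were the members named for a sample that stood apart or for a gene nearby.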

Additional observations from a re-analysis of the deposited data

Results flagged for a closer look

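Within the 4 Ddx41+/+ samples, 81 values were examined for a sample far from the others (the 77 members, 3 sums and Ddx41), and 6 members had a gap to the nearest sample, as a share of the range, above the critical value of the Dixon test, beside about 4.05 expected by chance at 1 in 20. The groups of 3 were not examined. Ddx41+/+ replicate 1 was low for Mrpl54 (47.7 CPM, next sample 51.2, ratio 0.913) and for Mrpl28 (69.7 CPM, next 79.5, ratio 0.856). Ddx41+/+ replicate 3 was high for Mrpl50 (72.8 CPM, next 52.9, ratio 0.894) and for Mrpl46 (32.6 CPM, next 29.4, ratio 0.905). Ddx41+/+ replicate 2 was high for Mrps17 (60.7 CPM, next 55.4, ratio 0.835) and for Mrps25 (38.3 CPM, next 35.1, ratio 0.873). No sum over members and not Ddx41 was among them.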

How the results depend on the processing

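No paired analysis was made, because the sample labels used here hold nothing that pairs a Ddx41+/+ sample with a Ddx41+/- sample. No member passed the adjusted threshold under any of the 15 alternatives, and Ddx41 stayed past it with log2 fold changes from -0.56 to -0.50. The count of all genes past the threshold, 29, moved to 15 with library totals only, 91 without the expression filter, 156 with DESeq2, 10 with limma-voom, 14 with the non-robust fit, 51 with the GC and length correction, and 7 to 41 when each sample was left out in turn. Causes were not tested. Mycn was refitted under the same alternatives after its call was seen. Members without overlap and higher, 0, became 1 with library totals only, with median-of-ratios scaling and with DESeq2. Leaving out each sample in turn gave 0 to 3 of these, 3 to 14 without overlap and lower, 0 to 1 higher and 1 to 10 lower at an unadjusted p under 0.05, a summed CPM of 95.5% to 99.2% of Ddx41+/+ and a median log2 fold change of -0.07 to -0.02. The largest lower counts came without Ddx41+/- replicate 6. Shares over all tested genes were not counted in these fits, so whether the members' counts exceed them is not known.

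Of 435 refitted values of the 29 named members, 21 changed sign, with adjusted p of 0.85 or more. Scaling by upper quartile gave -0.005 for Mrps18a, library totals alone gave -0.0117, and the GC and length correction gave 0.0182 for Mrpl12. Leaving out each sample in turn gave log2 fold changes of -0.0587 to 0.147 for Mrpl47, -0.1184 to 0.1356 for Mrps36, -0.0908 to 0.0041 for Mrpl12, -0.0385 to 0.0532 for Mrps18b, -0.1884 to 0.0365 for Mrpl11, -0.0478 to 0.0552 for Mrps18a, -0.0042 to 0.1653 for Mrpl42, -0.0117 to 0.0815 for Mrps12, -0.0786 to 0.0086 for Mrps25, -0.0077 to 0.0977 for Mrpl33, -0.1068 to 0.0732 for Mrpl32 and -0.0428 to 0.105 for Mrpl18.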
